A study of Mus musculus with 8 samples.

Results

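A set of 9 long noncoding RNAs, Malat1, Neat1, Meg3, Rian, Mirg, Rmst, Miat, Snhg11 and Gas5, were followed in AtT-20 cells, a mouse pituitary corticotrope line, during tamoxifen treatment. They are 9 of the 55401 gene rows in each deposited table and were taken by gene name, with 1 row for each. The names had been chosen from levels and changes already seen in these same libraries, so their levels and changes are given as a description. Some members entered the fits across all genes, and their calls there are not read as support. The cells of all 8 libraries carried ER-Pax7, a tamoxifen-activated version of the pioneer transcription factor Pax7, as a transgene. There were 2 libraries at each of 0, 24, 48 and 72 h of tamoxifen. Libraries of vehicle-treated cells at matched times were not used here, so ER-Pax7 activation, tamoxifen itself and hours in culture cannot be told apart. The labels do not say that the libraries of one time came from separate cultures, or what promoter drove the transgene, or whether the line was 1 clone. Values are normalized signals scaled by the authors, read here from their columns and sizes as average coverage per exonic base of a gene. Levels are set side by side between genes on that reading.

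Long noncoding RNAs are spliced or unspliced transcripts that code for no known protein, and many stay in the nucleus. Malat1 and Neat1 are neighbouring nuclear RNAs: Malat1 gathers in nuclear speckles, which hold splicing factors, and Neat1 is the scaffold of paraspeckles. Meg3, Rian and Mirg are transcribed from the maternal copy of the imprinted Dlk1-Dio3 region and carry clusters of miRNAs and small nucleolar RNAs, while Dlk1, Rtl1 and Dio3 are transcribed from the paternal copy. Loss of MEG3 is well known in human non-functioning pituitary adenomas. Gas5 and Snhg11 are host genes of small nucleolar RNAs, and Rmst and Miat are known mainly from neural cells.

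The members spanned a wide range of levels. Malat1 was the highest, with a mean signal of 44.9 over the 8 libraries and rank 301 of 55401. Miat followed at 3.35, Neat1 at 1.07 and Gas5 at 0.916. Rmst averaged 0.344, Rian 0.212, Mirg 0.0735 and Meg3 0.0287. Snhg11 was listed at 0 in 4 libraries and did not exceed 0.00679 in the others. The ranges over libraries of neighbours in this order overlapped for Neat1 and Gas5 (0.715 to 1.33 against 0.803 to 1.05) and for Rmst and Rian (0.156 to 0.553 against 0.181 to 0.265), and were apart for Malat1 and Miat, Miat and Neat1, Rian and Mirg, Mirg and Meg3, and Meg3 and Snhg11. Gas5 and Rmst were apart as well.

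**Figure D1:**
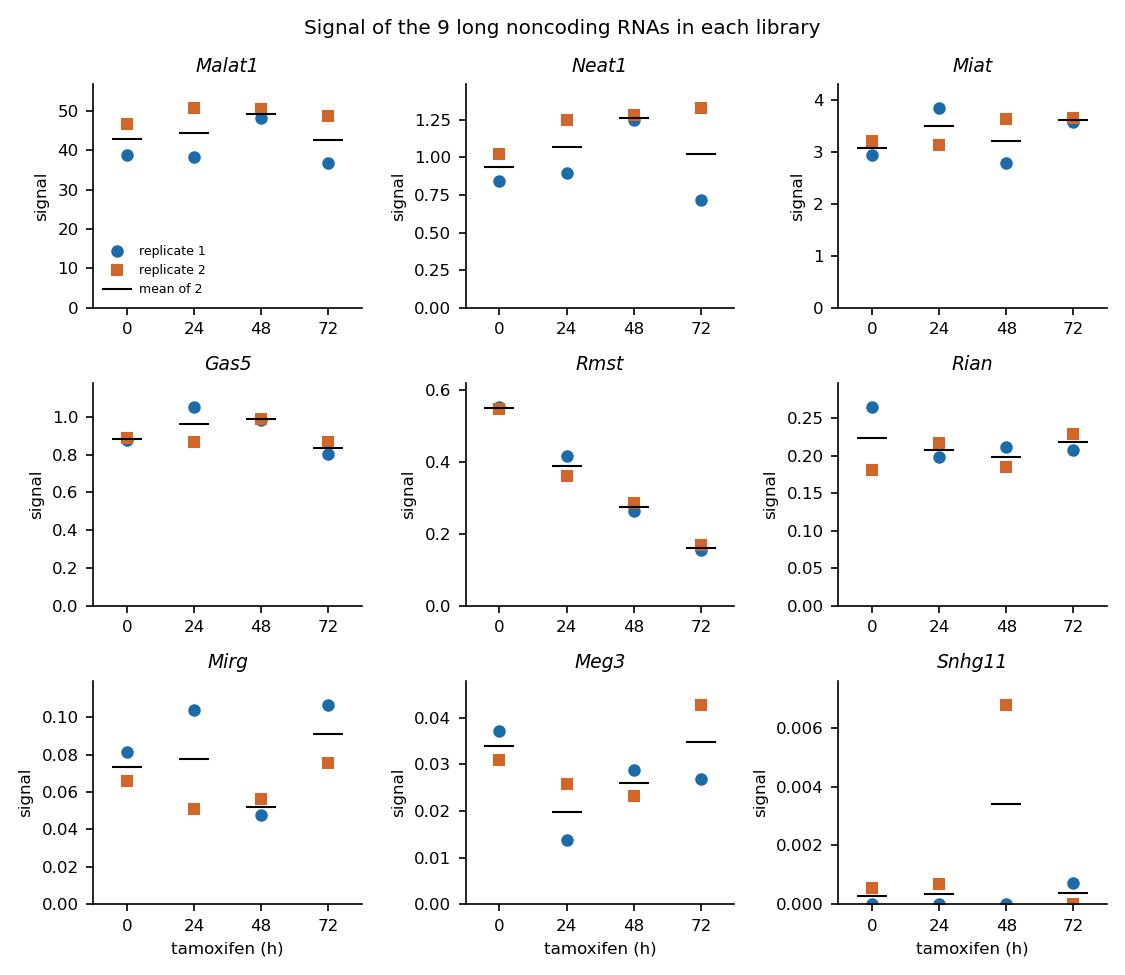
Normalized signal (vertical axis, linear, from 0, own scale in each panel) of the 9 long noncoding RNAs at 0, 24, 48 and 72 h of tamoxifen (horizontal axis). Circles are replicate 1, squares replicate 2 and bars the mean of the 2 libraries. Rmst is lower at each later time, with means of 0.550, 0.388, 0.274 and 0.162, and the replicate 2 squares of Malat1 and Neat1 lie above the circles at every time.

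The fit across the whole table was made with limma on log2(signal + 1) for the 9606 genes whose mean reached 1, with Benjamini-Hochberg adjustment at 0.05. It called 22 genes at 24 h (0.229% of those tested), 53 at 48 h (0.552%) and 193 at 72 h (2.01%), each against 0 h. Malat1, Miat and Neat1 entered that fit and 0 of the 3 were called at any time, with 1269, 1010 and 1505 of all genes at an unadjusted p under 0.05 at 24, 48 and 72 h. A second fit, with a lower floor on the mean of 0.1 and log2(signal + 0.1), covered 17871 genes and 6 members, adding Gas5, Rmst and Rian. It called 0.162% of genes at 24 h, 0.548% at 48 h and 1.57% at 72 h, and of the 6 members it called 0 at 24 h and 1, Rmst, lower at 48 h and 72 h, where 0.269% and 0.576% of genes were called lower. Mirg, Meg3 and Snhg11 passed neither floor. Since the rule used these values, nothing is read from those counts. The summed signal per library was 164236 to 178548, read depth is unknown, and 17726 genes were listed at 0 in every library. The corticotrope label was checked against its markers. Pomc, the precursor of the hormone ACTH, was at 499 to 679, and the corticotrope factor Tbx19 averaged 19.8. The CRH receptor Crhr1 averaged 0.0753 and the vasopressin receptor Avpr1b 0.000317. Of the other pituitary hormone genes, Gh, Prl, Tshb and Fshb were at or near 0. The levels of Neurod1, Pcsk1, Lhb and Cga, also on the list of markers, are not reported here. Of 42 marker genes of corticotropes and other cell types, 11 entered the main fit, and 0, 0 and 2 passed at 24, 48 and 72 h (limma), Nr3c1 and Snap25, both lower. Snap25, a membrane fusion gene of neurons and secretory cells, had 10.0 and 10.2 at 72 h against 12.7 and 12.7 at 0 h (change of -0.30, limma adjusted p = 0.0479), a call lost on leaving out any 0 h, 48 h or 72 h library and in the lower-floor fit (adjusted p = 0.0537). The lower-floor fit covered 18 of the markers, and the melanotrope markers Pcsk2, a hormone-processing protease gene, and Oacyl passed as higher at 24, 48 and 72 h. Drd2 and Pax7, also listed as melanotrope markers, were not among the calls of either fit at any time, and their levels are not reported here. Reads of the ER-Pax7 transgene may count toward Pax7 at every time, so its row cannot be read as a marker. Pcsk2 had 0.845 and 0.822 at 72 h against 0.325 and 0.294 at 0 h (limma adjusted p = 0.00425), a call lost without 0 h replicate 2. Oacyl had 0.618 and 0.635 at 72 h against 0.0129 and 0.0171 at 0 h (limma adjusted p = 0.00135), and this call was kept in 8 of 8 fits that left out 1 library. At 24 h the call of Pcsk2 was lost in 8 of 8 such fits and that of Oacyl in 6, and at 48 h both were lost without a 0 h library or 48 h replicate 1. The part of these markers in the members' values was not tested.

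Rmst, a long noncoding RNA that in human neural progenitors binds the transcription factor SOX2, lies on chromosome 10 at 92071037 to 92165170 (GRCm38, minus strand, 7423 exonic bases). Its signal was 0.553 and 0.546 at 0 h, 0.417 and 0.360 at 24 h, 0.263 and 0.286 at 48 h, and 0.156 and 0.168 at 72 h. Both libraries of each time lay below both libraries of the time before. Rmst averaged 0.162 ± 0.00902 at 72 h against 0.550 ± 0.00530 at 0 h (SD, n = 2 each), a ratio of 0.295. On the log2(signal + 1) scale its changes against 0 h were -0.16 at 24 h, -0.28 at 48 h and -0.42 at 72 h, and with the pseudocount of 0.1 they were -0.41, -0.80 and -1.31. The call of the lower-floor fit rests on the values that chose Rmst and is no support for them. It was lost without either 0 h library at 72 h, and on leaving out any 0 h, 48 h or 72 h library at 48 h. In bulk RNA, fewer cells with the transcript and less of it per cell cannot be told apart. Rmst did not overlap between the groups at any of the 3 times, and of the 17871 genes with a mean of at least 0.1 the groups did not overlap in either direction for 40.5% at 24 h, 44.2% at 48 h and 47.6% at 72 h.

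Short annotated segments of the Rmst locus were read along its length. They are entries of their own in the tables, they share reads with Rmst, and they were set beside it after their values had been seen. There were 8, of which 7 had a mean signal of at least 0.1. Of these 7, 6 had a lower mean at 72 h than at 0 h and 5 did not overlap, with ratios of 0.289 to 1.10, while 21.9% of the 17871 genes lay wholly below at 72 h. Since Rmst was chosen with its values known and the segments share its reads, these counts are no separate evidence. The highest, Gm27999 (chr10:92075169-92075361, minus strand, wholly exonic in Rmst), had 0.614 and 0.594 at 0 h, 0.467 and 0.394 at 24 h, 0.294 and 0.294 at 48 h, and 0.169 and 0.180 at 72 h. Its mean was lower at each later time, as in the whole gene and in the plot of Rmst segments. Gm27419, which starts 29363 bases from the 5′ end of Rmst along the genome, was at 0.179 and 0.230 at 72 h against 0.191 and 0.181 at 0 h, so its groups overlapped. The Rmst span also holds Mir135a-2 and Mir1251, whose means did not exceed 0.0307. The reference sequence of Gm27999 is given because it was the highest of the segments and followed the whole gene most closely in its ratio at 72 h.
Gm27999: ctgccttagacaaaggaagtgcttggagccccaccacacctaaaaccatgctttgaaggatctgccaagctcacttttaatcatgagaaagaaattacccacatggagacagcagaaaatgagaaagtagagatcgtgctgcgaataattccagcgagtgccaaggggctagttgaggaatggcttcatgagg

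**Figure D2:**
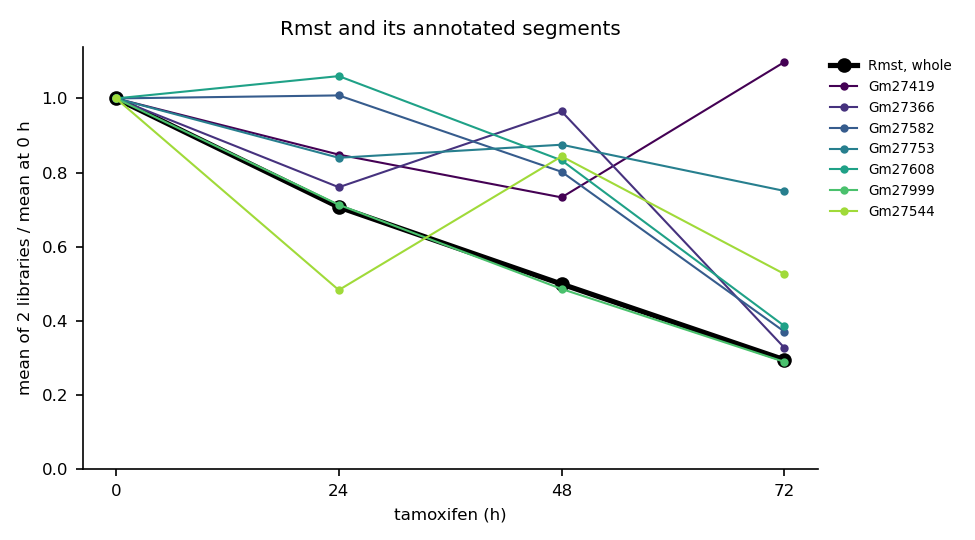
Mean signal of the 2 libraries at each time divided by the mean at 0 h (vertical axis, from 0) for Rmst (thick black line) and its 7 annotated segments with a mean of at least 0.1 (thin lines, from 5′-most to 3′-most in the legend), against hours of tamoxifen. Rmst ends at 0.295 and Gm27999 at 0.289, whereas Gm27419 ends at 1.10.

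The nearest coding genes on either side of Rmst were Nedd1, a centrosomal protein gene 519575 bases away, and Tmpo, a nuclear lamina protein gene 889721 bases away. Their log2(signal + 1) changes at 72 h against 0 h were -0.10 (adjusted p = 0.423) and -0.14 (adjusted p = 0.314) by limma, and neither passed the test. Over all members there were 14 nearest coding neighbours, of which 6 were tested, and 0, 0 and 1 passed at 24, 48 and 72 h, the 1 being Rtl1.

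Malat1 and Neat1 lie 22035 bases apart on the minus strand of chromosome 19, at 5795690 to 5802672 and at 5824708 to 5845478. Malat1 had 38.9 and 46.7 at 0 h, 38.3 and 50.7 at 24 h, 48.2 and 50.5 at 48 h, and 36.7 and 48.9 at 72 h. Neat1 had 0.845 and 1.02 at 0 h, 0.894 and 1.25 at 24 h, 1.25 and 1.28 at 48 h, and 0.715 and 1.33 at 72 h. In both genes replicate 2 exceeded replicate 1 at all 4 times, and only the 48 h libraries lay wholly above the 0 h libraries, as they did in 22.7% of the 17871 genes of the lower floor. The same order of replicates at all 4 times was found in 3.92% of the 9606 genes with a mean of at least 1, and the opposite order in 11.0%. Malat1 averaged 42.8 ± 8.59 at 72 h against 42.8 ± 5.50 at 0 h, and Neat1 averaged 1.02 ± 0.433 at 72 h against 0.934 ± 0.126 at 0 h (SD, n = 2 each).

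The size of this difference between replicates varied with time. The ratio of replicate 2 to replicate 1 was 1.20, 1.32, 1.05 and 1.33 for Malat1 and 1.21, 1.40, 1.03 and 1.86 for Neat1 at 0, 24, 48 and 72 h. Xist, the RNA that silences an X chromosome, showed the same order, with 3.93 and 5.14 at 0 h, 3.45 and 5.76 at 24 h, 4.63 and 4.88 at 48 h, and 3.93 and 4.79 at 72 h. The mitochondrial ribosomal RNA mt-Rnr1 had 1.301 and 2.2002 at 0 h, 1.14 and 3.43 at 24 h, 2.21 and 5.97 at 48 h, and 1.23 and 25.1 at 72 h. It was picked, after its values were seen, from 11 rows of stable noncoding RNAs listed as a library check. The replicate order of the other rows is not reported here. Ribosomal RNA was depleted in these libraries, and the part of depletion or RNA quality in the replicate order was not tested. The cytoplasmic and nuclear RNA Tug1 did not share the order, with 4.05 and 3.92 at 0 h and 3.72 and 3.80 at 72 h.

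**Figure D3:**
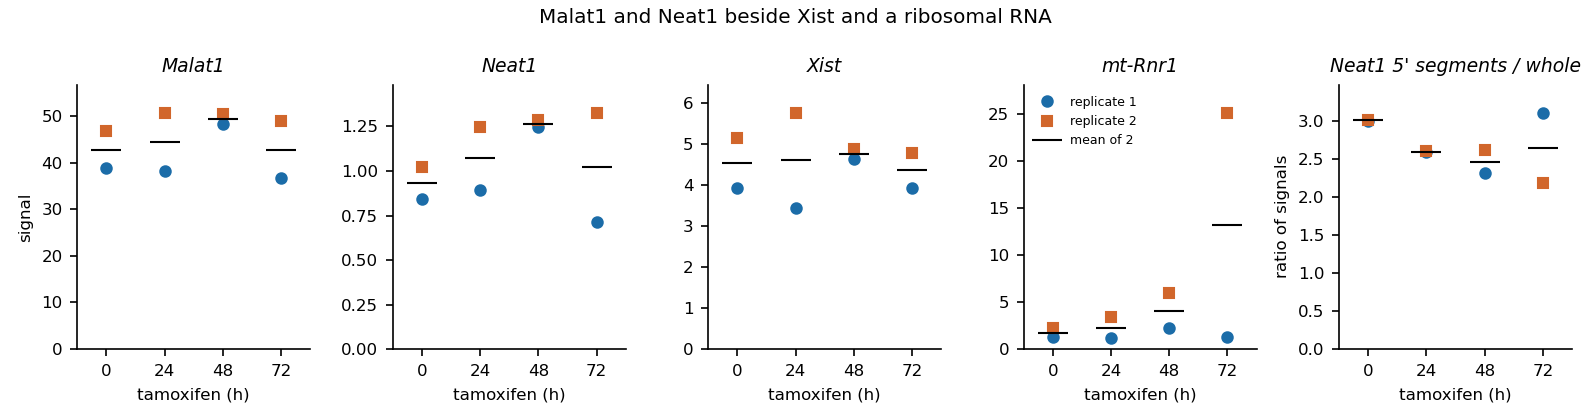
Normalized signal of Malat1, Neat1, Xist and mt-Rnr1, and in the last panel the ratio of the mean signal of 3 segments near the 5′ end of Neat1 to the signal of the whole gene, against hours of tamoxifen; axes are linear from 0. Circles are replicate 1, squares replicate 2 and bars the mean of the 2 libraries. In the 4 panels of signal the squares lie above the circles at every time, and the ratio lies between 2.19 and 3.11.

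Over the 8 libraries the genes most like Malat1, by Pearson's r of log2(signal + 1) among tested genes sharing no exonic base with it, were Gm28006, a segment of Neat1 (r = 0.968), and Neat1 itself (r = 0.954). For Neat1 the most like was Malat1. For Miat they were Actl6a, a chromatin remodelling subunit gene (r = 0.951), and Grin1os (r = 0.950), while Malat1 and Miat gave r = -0.209. Malat1 correlated with Xist at r = 0.887 and with mt-Rnr1 at r = 0.640, each over 8 libraries that share time and replicate order.

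Neat1 is made as a long form and as a short form that ends early, and both share the 5′ end. The 3 annotated segments of this stretch lie between bases 442 and 1193 from that end, and their mean signal was 2.19 to 3.11 times the signal of the whole 20771-base gene, with a median of 2.61. The ratio was 2.999 and 3.02 at 0 h, 2.59 and 2.61 at 24 h, 2.31 and 2.62 at 48 h, and 3.11 and 2.19 at 72 h. The 72 h libraries held both the highest and the lowest ratio. In Malat1, which is a single unspliced exon, the segment Gm27694 (bases 3588 to 3673) was at 1.25 to 1.34 times the whole gene. Gm37376, annotated on the opposite strand wholly within 453 bases of Malat1, averaged 55.1, and without stated use of strand its reads and those of Malat1 cannot be told apart. Gm28006 (chr19:5844916-5845037) and Gm27694 (chr19:5799000-5799085), both on the minus strand, are shown as the stretches whose levels were read apart from the whole genes.
Gm28006: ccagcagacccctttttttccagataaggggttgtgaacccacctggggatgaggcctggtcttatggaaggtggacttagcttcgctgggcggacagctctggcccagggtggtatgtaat
Gm27694: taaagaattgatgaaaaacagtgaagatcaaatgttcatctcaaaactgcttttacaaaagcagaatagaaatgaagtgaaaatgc

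The proteins that work with this pair were read from lists. Of 17 paraspeckle protein genes, 16 were tested and 0 passed at 24, 48 or 72 h, with a smallest adjusted p of 0.381 at 24 h and 0.389 at 72 h (limma). Nono, a core paraspeckle protein, had 18.9 and 19.9 at 72 h against 19.5 and 19.1 at 0 h, and its partner Sfpq had 9.59 and 9.21 at 72 h against 10.3 and 10.2 at 0 h. Of 25 nuclear speckle proteins and RNA binders of these transcripts, 22 were tested and 0 passed at any of the 3 times, with smallest adjusted p-values of 0.302, 0.328 and 0.385. The splicing factor Srsf1 had 10.2 and 10.1 at 72 h against 11.4 and 11.0 at 0 h.

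Miat, also called Gomafu, is a nuclear RNA of neurons that binds splicing factors, and lies on chromosome 5 at 112213228 to 112229395 (minus strand). It had 2.94 and 3.21 at 0 h, 3.84 and 3.14 at 24 h, 2.78 and 3.64 at 48 h, and 3.58 and 3.65 at 72 h. Both 72 h libraries lay above both 0 h libraries, whereas the 24 h and 48 h libraries overlapped them. Of the 17871 genes with a mean of at least 0.1, 25.7% lay wholly above at 72 h. Miat averaged 3.61 ± 0.0517 at 72 h against 3.07 ± 0.185 at 0 h (SD, n = 2 each), a change of 0.18 on the log2(signal + 1) scale.

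The Miat signal was not even along the gene. Its 4 annotated segments, 720 bases in all and set beside the gene after their values had been seen, were at 0.0345 to 0.113 times the whole gene. The highest, Gm27357, averaged 0.378, and the lowest, Gm27882, averaged 0.115. Gm26953, a gene on the opposite strand, shares 2260 exonic bases with Miat, which is 24.3% of the Miat exons. It had 2.24 and 2.49 at 0 h, 2.86 and 2.45 at 24 h, 2.17 and 2.75 at 48 h, and 2.78 and 2.83 at 72 h. Both genes were highest in 24 h replicate 1 and lowest in 48 h replicate 1. Reads of Miat and of Gm26953 in the shared part cannot be told apart here. Miat is known for tandem copies of ACTAAC, which resembles the branch point sequence read by the splicing factor Sf1. This motif was searched on both strands of the segments. Gm27998, Gm27882 and Gm27627 held 3, 3 and 4 copies on the Miat strand, Gm27357 held 0, and none held a copy on the other strand. The 4 segments belong to the annotation class misc_RNA. Of 540 genes of that class of 74 to 361 bases, whether or not they lie in a long noncoding RNA, 5.37% held the motif on either strand. Gm27627 (chr5:112217318-112217467, minus strand), with the repeats in capitals, is shown as the stretch with the most copies, where the signal averaged 0.118.
Gm27627: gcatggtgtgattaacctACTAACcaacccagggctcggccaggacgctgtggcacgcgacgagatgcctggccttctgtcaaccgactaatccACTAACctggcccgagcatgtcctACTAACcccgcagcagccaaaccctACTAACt

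Sf1, the branch point protein, had 13.2 and 13.7 at 72 h against 12.5 and 12.3 at 0 h (limma adjusted p = 0.505). Celf3, a splicing regulator that binds Miat, had 4.54 and 4.99 at 72 h against 4.79 and 5.90 at 0 h (limma adjusted p = 0.537). Qk, whose protein binds the same repeats, was below the floor of the main fit, with 0.395 and 0.591 at 72 h against 0.4997 and 0.813 at 0 h.

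Meg3, Rian and Mirg lie in that order on the plus strand of chromosome 12, at 109541001 to 109571726, 109603808 to 109661716 and 109729764 to 109749460. Meg3 had 0.0371 and 0.0309 at 0 h, 0.0137 and 0.0258 at 24 h, 0.0288 and 0.0233 at 48 h, and 0.0270 and 0.0428 at 72 h. Rian had 0.265 and 0.181 at 0 h, 0.199 and 0.217 at 24 h, 0.212 and 0.185 at 48 h, and 0.208 and 0.228 at 72 h. Mirg had 0.0813 and 0.0659 at 0 h, 0.104 and 0.0510 at 24 h, 0.0476 and 0.0562 at 48 h, and 0.107 and 0.0755 at 72 h. The 72 h libraries of each overlapped the 0 h libraries. Both 24 h and both 48 h libraries of Meg3, and both 48 h libraries of Mirg, lay below both 0 h libraries, at levels under both floors. Of the 17871 genes with a mean of at least 0.1, 18.8% lay wholly below at 24 h and 21.5% at 48 h. No such share was taken for genes as low as Meg3 and Mirg, and no change can be read at these levels. Over the 8 libraries r was 0.573 for Meg3 and Rian, -0.197 for Meg3 and Mirg, and 0.121 for Rian and Mirg. Rian was 7.38 times the level of Meg3.

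Within the same region the signal over the exons of the paternal gene Rtl1 was far above that of the 3 long noncoding RNAs. Rtl1, a retrotransposon-derived coding gene needed in placenta, lies on the minus strand at 109589193 to 109600330, between Meg3 and Rian. In its exons Mir136 on the plus strand and Mir3071 on the minus strand overlap, and they averaged 5.09 and 5.11. Reads of Rtl1 and of a transcript opposite to it therefore cannot be told apart in its level or its change. Rtl1 had 4.97 and 4.79 at 0 h, 5.42 and 5.81 at 24 h, 6.07 and 6.32 at 48 h, and 6.39 and 6.82 at 72 h. Each library was above every library of an earlier time. Its mean was 203 times that of Meg3, 27.5 times that of Rian and 79.2 times that of Mirg. It averaged 6.60 ± 0.307 at 72 h against 4.88 ± 0.125 at 0 h (SD, n = 2 each), and it rose by 0.37 on the log2(signal + 1) scale (limma adjusted p = 0.0232), with 0.17 at 24 h (adjusted p = 0.294) and 0.29 at 48 h (adjusted p = 0.0989). This call was lost in 6 of 8 fits that left out 1 library, those without a 0 h, 48 h or 72 h library, where the adjusted p reached 0.185, and in the fit with no filter (adjusted p = 0.124). Of the 13 genes of the region and its flanks that were listed, 8 were tested and Rtl1 alone passed, at 72 h. Dlk1, a paternal Notch-family ligand gene, had 0.000391 and 0.00184 at 72 h against 0.00166 and 0.00274 at 0 h. Its groups overlapped, and no change can be read at such levels. Dio3, the thyroid hormone inactivating enzyme gene, was listed at 0 in 7 of 8 libraries.

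**Figure D4:**
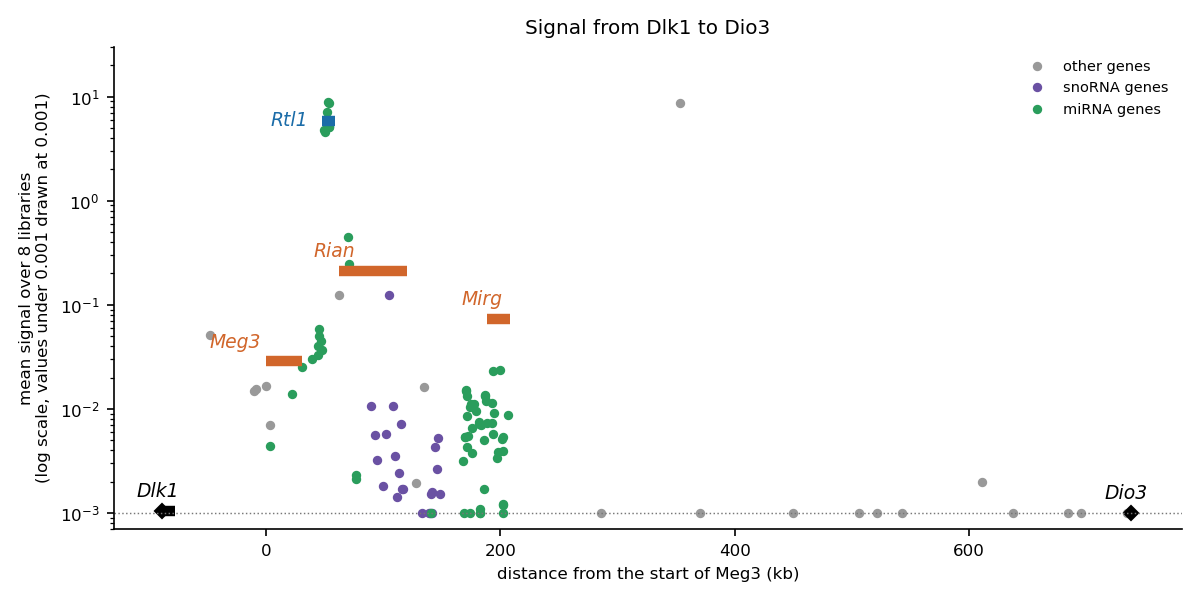
Mean signal over the 8 libraries (vertical axis, log scale, values under 0.001 drawn at 0.001) against distance from the start of Meg3 in kb for the genes from Dlk1 to Dio3. Bars mark the spans of Meg3, Rian and Mirg (orange), Rtl1 (blue) and Dlk1 and Dio3 (black, with a diamond), and points are the other genes by type. Rtl1 and the 7 miRNA genes in its exons lie between 4.53 and 8.92, and the other miRNA genes do not exceed 0.450.

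The small RNA genes of the region were listed as well, and those lying in Rtl1 exons share its reads. From Dlk1 to Dio3 there were 116 genes, 67 of them miRNA genes and 23 small nucleolar RNA genes. A mean of at least 1 was reached by 9, namely Rtl1, the 7 miRNA genes in its exons and Gm3379. The 7 averaged 4.53 to 8.92. Of the 60 other miRNA genes, 58 were below 0.1, 3 were at 0 in every library, and the highest, Mir341 inside Rian, averaged 0.450. The 13 small nucleolar RNA genes of Rian did not exceed 0.124 and the 14 miRNA genes of Mirg did not exceed 0.0236. These libraries are of total RNA rather than sized small RNA, so a miRNA gene here measures reads over its hairpin.

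Of the 7 miRNA genes within Rtl1, 4 passed the limma test at 72 h, Mir127, Mir434, Mir136 and Mir3071, and the changes of the 7 were 0.31 to 0.52 on the log2(signal + 1) scale. Of all 9606 genes tested, 2.01% passed at 72 h. Mir127 (chr12:109592846-109592915) had 7.97 and 7.67 at 72 h against 5.41 and 5.34 at 0 h (change of 0.47, adjusted p = 0.0232). Mir127 also passed at 48 h, with 8.30 and 7.80 (change of 0.51, limma adjusted p = 0.0359), a call lost on leaving out any 0 h, 48 h or 72 h library, and none of the other 6 passed at 24 or 48 h. Mir434 had 10.2 and 10.9 at 72 h against 7.72 and 7.69 at 0 h (change of 0.41, adjusted p = 0.0157). Mir136 and Mir3071 overlap and had nearly the same values. Without either 0 h library or either 72 h library 0 of the 4 kept the call, with adjusted p-values up to 0.181, and Mir127 also lost it without either 48 h library. All 7 lie wholly in Rtl1 exons, so their reads and those of Rtl1 cannot be told apart, and their calls are no separate evidence.

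Of these genes 6 lie on the plus strand, opposite to Rtl1, and are known to be transcribed from the maternal copy. Several of their miRNAs are known to cut the Rtl1 transcript. The parental copies were not told apart in these data. Mir3071 lies on the Rtl1 strand. The RefSeq table for GRCm38.p6 held 11 mature miRNAs of the 6 genes. All 11 were perfect complements of the 6358-base Rtl1 transcript, which follows from their lying opposite to it, and their 11 seeds were all different. The miRNAs of the 3 antisense genes that passed the test are shown with the seed, bases 2 to 8, in capitals.
mmu-miR-127-5p: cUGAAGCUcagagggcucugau
mmu-miR-127-3p: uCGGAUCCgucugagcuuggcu
mmu-miR-434-5p: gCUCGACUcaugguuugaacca
mmu-miR-434-3p: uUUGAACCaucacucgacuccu
mmu-miR-136-5p: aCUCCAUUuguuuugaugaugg
mmu-miR-136-3p: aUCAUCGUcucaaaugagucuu
The site of miR-127-3p in the Rtl1 transcript, at bases 2642 to 2663, has the bases that pair with the seed in capitals.
Rtl1 site: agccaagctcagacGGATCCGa

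Polycomb repressive complex 2, which is reported to bind Meg3, was read from a list of 11 genes, of which 8 were tested and 0 passed at 24, 48 or 72 h, with smallest adjusted p-values of 0.501, 0.464 and 0.230 (limma). Ezh2, its methyltransferase, had 3.47 and 3.07 at 72 h against 3.61 and 3.88 at 0 h.

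Gas5, a host gene that is translated briefly and then degraded by nonsense-mediated decay, lies on chromosome 1 at 161034422 to 161038539 (plus strand). It had 0.879 and 0.889 at 0 h, 1.05 and 0.866 at 24 h, 0.984 and 0.988 at 48 h, and 0.803 and 0.865 at 72 h. Both 48 h libraries lay above and both 72 h libraries below the 0 h libraries. Of the 17871 genes, 22.7% lay wholly above at 48 h and 21.9% wholly below at 72 h. Gas5 averaged 0.834 ± 0.0440 at 72 h against 0.884 ± 0.00692 at 0 h (SD, n = 2 each), a ratio of 0.944.

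Its 10 small nucleolar RNAs, which guide methylation of ribosomal RNA, were all detected, with means of 0.184 to 2.60, and 6 had a mean of at least 1. The highest were Snord47 at 2.60 and Gm22357 at 2.51. Snord47 had 2.38 and 2.77 at 72 h against 2.25 and 2.94 at 0 h, so the times overlapped. All 10 lie within merged Gas5 exons, so host and small RNA reads cannot be told apart. The 2 entries named Snord80 cover nearly the same bases and had nearly the same values. The boxes that mark this class, a C box (ATGATGA or GTGATGA) and a D box (CTGA), were searched on the transcribed strand alone. Both were found in 8 of the 10 of Gas5 and in 7 of the 13 of Rian, against 73.6% of 303 annotated small nucleolar RNAs of 60 to 84 bases. Snord47 (chr1:161038082-161038158) and Gm22357 (chr1:161036057-161036139) are shown as the highest of Gas5, and Gm24895 (chr12:109646129-109646202), at 0.124, as the highest of Rian, with both boxes in capitals.
Snord47: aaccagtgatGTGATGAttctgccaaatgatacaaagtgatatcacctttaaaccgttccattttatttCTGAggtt
Gm22357: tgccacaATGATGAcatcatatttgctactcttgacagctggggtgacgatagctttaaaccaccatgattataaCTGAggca
Gm24895: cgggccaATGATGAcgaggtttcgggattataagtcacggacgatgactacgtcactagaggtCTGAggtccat

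Snhg11, on chromosome 2 at 158375638 to 158386151 (plus strand), is a host gene best known from neurons. It was listed at 0 in 0 h replicate 1, 24 h replicate 1, 48 h replicate 1 and 72 h replicate 2. It had 0.000533 in 0 h replicate 2, 0.000690 in 24 h replicate 2, 0.00679 in 48 h replicate 2 and 0.000723 in 72 h replicate 1. Its 2 small nucleolar RNA genes were listed at 0 in every library. No change can be read at such levels.

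Other host genes and the decay pathway gave the setting for Gas5. Of 28 host genes of small nucleolar RNAs, 18 were tested and 0 passed at any of the 3 times (limma), with smallest adjusted p-values of 0.485, 0.567 and 0.303. Their median change at 72 h was -0.07 on the log2(signal + 1) scale, against 0.01 over all genes tested. Snhg1, a host of the same kind, had 2.73 and 2.35 at 72 h against 2.70 and 2.87 at 0 h. Of 14 nonsense-mediated decay genes, 12 were tested and 0 passed at any of the 3 times, with smallest adjusted p-values of 0.265, 0.676 and 0.193. Upf1, the helicase of that pathway, had 4.38 and 4.18 at 72 h against 3.88 and 3.89 at 0 h. Nr3c1, the glucocorticoid receptor that Gas5 is known to bind, fell to 3.43 and 3.69 at 72 h, against 5.07 and 4.93 at 0 h, a change of -0.40 on the log2(signal + 1) scale (limma adjusted p = 0.0440). That call was kept in 2 of 8 fits that left out 1 library and lost without a 0 h, 48 h or 72 h library, with an adjusted p of up to 0.252.

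Other long noncoding RNAs were read from a list of 50 names, of which 8 rows were tested. None passed at 24, 48 or 72 h (limma), with smallest adjusted p-values of 0.443, 0.179 and 0.0550. The last was for Peg13, an imprinted RNA of the brain, with 1.61 and 1.72 at 72 h against 1.23 and 1.26 at 0 h. Over the companion lists other than the cell type markers and the library check genes, 91 rows were tested and 0, 0 and 1 passed at 24, 48 and 72 h, with 6, 6 and 7 at an unadjusted p under 0.05 (limma). The 1 was Rtl1. Of all 9606 genes tested, 0.229%, 0.552% and 2.01% passed, and 1269, 1010 and 1505 were at an unadjusted p under 0.05. The median changes of the 91 rows were -0.00, -0.01 and -0.03 against 0.01, 0.00 and 0.01 for all genes tested.

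Promoter sequences of 300 bases were at hand for 7 members, with 9 promoters in all, from RefSeq on GRCm38.p6. Promoters of Rmst and Neat1 were not analysed here. Of DNA motifs, 3 were searched on both strands, each its own reverse complement and none overlapping another. The paired homeodomain site TAATNNATTA was in 0 of the 9 and in 0.39% of 32851 promoters. The estrogen response element GGTCANNNTGACC was in 0 of the 9 and in 0.07%. The cAMP response element TGACGTCA was in 2 of the 9 and in 1.79% of all. The 2 were of Meg3, starting at -57 from the start site, and of Gas5, starting at -46. A match is a description of these letters, and binding was not measured. The Meg3 promoter (chr12:109540746-109541045) and the Gas5 promoter (chr1:161034916-161035215), both on the plus strand, are shown with that element in capitals because a nearly silent and a well detected member share it.
Meg3 promoter: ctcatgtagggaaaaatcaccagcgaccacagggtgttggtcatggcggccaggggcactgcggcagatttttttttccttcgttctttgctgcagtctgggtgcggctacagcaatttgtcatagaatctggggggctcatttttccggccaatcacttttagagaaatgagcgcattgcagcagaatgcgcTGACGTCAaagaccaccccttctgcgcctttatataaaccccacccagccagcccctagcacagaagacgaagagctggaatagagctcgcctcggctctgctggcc
Gas5 promoter: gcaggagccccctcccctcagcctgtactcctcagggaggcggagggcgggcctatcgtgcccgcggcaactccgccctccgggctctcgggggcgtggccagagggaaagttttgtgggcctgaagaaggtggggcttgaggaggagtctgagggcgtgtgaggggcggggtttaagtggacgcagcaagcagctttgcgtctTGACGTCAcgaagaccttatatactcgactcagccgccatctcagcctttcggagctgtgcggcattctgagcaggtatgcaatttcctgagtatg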

How the data were processed

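Per the labels' protocols, total RNA from cultured cells was purified on columns and depleted of ribosomal RNA before sequencing. Although the labels' molecule field gives genomic DNA, their protocol describes RNA, and the values were treated as RNA. Per the submitters' processing notes, the tools were deepTools 3.5, HISAT2 2.2 and SAMtools 1.12, with mm10 and GRCm38 as builds. The deposited values are a normalized signal, read from their columns and sizes as mean coverage over merged exons. The scaling, counter, strand setting and annotation release used by the authors were not given in the sources used here. Mir136 and Mir3071, which overlap on opposite strands, averaged 5.09 and 5.11, so the level of any member may hold reads of both strands. Of 55401 rows, 54349 (98.1%) had the same gene ID and coordinates in GENCODE M21, which supplied segment sequences. Rian and Snhg11 were not among these rows, and their spans here are those of the deposited exons.

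The main test was limma 3.58.1 in R 4.3.3 on log2(signal + 1) with an intensity trend, for genes with a mean of at least 1, over all 8 libraries with time as the only term and 4 residual degrees of freedom. Each time was set against 0 h with Benjamini-Hochberg adjustment at 0.05. Since separate cultures are not stated, a p-value covers just the spread of these libraries, possibly technical. The fit was tested on simulated data. Alternatives were pseudocounts of 0.1 and 0.5, no filter, a lower floor, 2 rescalings, no trend, a replicate block and leaving out each library; the fits of Rmst, Nr3c1, Snap25, Pcsk2, Oacyl and the miRNA genes of Rtl1 without each library, and the annotated segments, were added after seeing the data. The members and lists were chosen with earlier results of these data known. Named genes were the members, small RNA genes and segments within them, genes from Dlk1 to Dio3, nearest coding neighbours, listed genes that passed or were among the 4 highest of a list, and the 2 genes most like each member with a mean of at least 1. Sfpq, Celf3, Qk, Snhg1, Peg13, mt-Rnr1, Crhr1, Avpr1b and the hormone genes were named outside this rule, after their values had been seen. Some genes that this rule names are not reported here.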

Additional observations from a re-analysis of the deposited data

How the results depend on the processing

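Counts of genes called depended on several settings. At 48 h the 53 calls became 26 with no filter, 98 with the lower floor, which also had a pseudocount of 0.1, and 24 with a replicate block, and at 72 h the 193 became 55 with no filter. Quantile normalization gave 22 higher and 24 lower at 48 h, against 31 and 22 in the main fit. With 1 library left out, where the lone library is assumed to vary like the others, 2 to 104 genes were called at 24 h, 2 to 95 at 48 h and 9 to 320 at 72 h. The lowest counts came without either 0 h library (2 at 24 h and at 48 h, 16 and 9 at 72 h) and the highest without a 24 h library. Companion list genes called at 72 h were 0 with no filter, which ends the call of Rtl1, and 0 to 3 with 1 library left out. The cause was not tested. The replicate block changed no call of a companion list gene. The correlations of replicate differences between times were 0.177, 0.337, -0.0163, 0.402, 0.0989 and 0.0726, so the numbers do not establish pairs. Read depth is unknown, which limits what can be said of Meg3, Mirg and Snhg11.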
